A study of Mus musculus with 10 samples.

Results

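The JAK-STAT pathway of the liver, the SOCS-family genes that restrain it and the repressor gene *Bcl6* were followed in RNA from 10 germ-free (GF) mice. The 10 genes were chosen by name, as receptors, kinase, transcription factors and feedback genes of this pathway, with earlier results of these data known: *Ghr*, *Il6ra*, *Jak2*, *Stat3*, *Stat5a*, *Stat5b*, *Socs2*, *Socs3*, *Cish* and *Bcl6*. All 10 were among the 12147 genes tested, so no gene of the set was lost to the filter on low counts.

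The livers came from C57BL6 mice raised without microbes, and the comparison asked what extracellular vesicles shed by gut microbes (MEV) do to the liver transcriptome when no live microbes are present. In the GF+MEV group (n = 5), each mouse received 80 μg of MEV in PBS by mouth, 2 times per week for 3 weeks. The GF+PBS group (n = 5) was also germ-free and received the PBS vehicle by the same route. Each library came from the whole liver of 1 mouse, and the 5 mice of a group belonged to a single experiment. Their sex and age are not given in the sources used here. RNA was measured, and neither hormone or cytokine levels nor the phosphorylation of any protein was analysed here.

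In this pathway, a hormone or cytokine binds a receptor at the cell surface and brings together receptor-bound Janus kinases (JAK). The kinases phosphorylate STAT proteins, which pair, enter the nucleus and switch on target genes. In hepatocytes, growth hormone acts through its receptor GHR, JAK2 and mainly STAT5B, whereas interleukin 6 acts through its receptor IL6RA, the shared subunit gp130 and STAT3. Among the genes switched on are *Cish* and the *Socs* genes, whose proteins bind receptors or kinases and damp the signal that induced them. BCL6 is a transcriptional repressor that can occupy sites resembling those of STAT5, and growth hormone lowers *Bcl6* RNA in mouse liver. The RNA of the feedback genes is short-lived and follows recent signalling.

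STAT dimers recognise the palindrome TTCNNNGAA, which reads the same on both strands. Windows of 280 bases, from 250 bases before to 30 bases after an annotated transcription start, were available from RefSeq (GRCm38.p6) for 9 of the 10 genes, 13 windows in all. The letters occurred 7 times in 4 of these windows, which belonged to the feedback genes *Socs3* and *Cish* and to *Bcl6*. Of 32817 windows of the same length over all genes, 7.83% held the motif at least once, 0.408% at least 2 times and 0.0305% at least 3 times. The 4 windows are shown because they hold these letters and belong to genes whose values are central below. Sequences run 5′ to 3′ on the strand of the gene, and capitals mark TTCNNNGAA.

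Cish, chr9:107296409-107296688, + strand: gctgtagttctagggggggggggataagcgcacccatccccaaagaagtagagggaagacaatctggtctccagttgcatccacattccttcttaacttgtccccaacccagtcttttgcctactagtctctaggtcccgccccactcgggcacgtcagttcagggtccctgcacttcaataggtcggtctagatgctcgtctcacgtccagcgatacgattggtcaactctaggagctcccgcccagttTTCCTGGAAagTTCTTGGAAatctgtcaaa

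Socs3, chr11:117969337-117969616, - strand: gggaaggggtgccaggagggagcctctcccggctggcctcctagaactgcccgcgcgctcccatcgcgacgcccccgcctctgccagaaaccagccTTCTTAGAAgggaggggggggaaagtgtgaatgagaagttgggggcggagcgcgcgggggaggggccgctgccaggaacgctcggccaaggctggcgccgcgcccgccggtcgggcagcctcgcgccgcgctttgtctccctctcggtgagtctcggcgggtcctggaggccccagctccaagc

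Bcl6, upstream start, chr16:23988823-23989102, - strand: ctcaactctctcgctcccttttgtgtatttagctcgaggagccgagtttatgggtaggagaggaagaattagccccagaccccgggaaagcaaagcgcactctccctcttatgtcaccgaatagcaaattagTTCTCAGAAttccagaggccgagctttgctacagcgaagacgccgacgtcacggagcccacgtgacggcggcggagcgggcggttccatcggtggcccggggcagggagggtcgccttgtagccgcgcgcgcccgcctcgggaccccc

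Bcl6, internal start, chr16:23981254-23981533, - strand: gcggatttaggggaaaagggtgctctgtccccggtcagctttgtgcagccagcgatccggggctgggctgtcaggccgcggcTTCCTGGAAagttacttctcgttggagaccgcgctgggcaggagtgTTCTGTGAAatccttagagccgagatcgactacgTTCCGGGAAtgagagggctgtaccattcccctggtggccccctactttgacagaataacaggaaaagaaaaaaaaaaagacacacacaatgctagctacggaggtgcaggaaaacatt

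In *Cish* the matches began at positions 1 and 12 counted from the transcription start, so they overlapped the start of the transcript. In *Socs3* the match began 154 bases before a RefSeq start that lies in no exon of the GENCODE M21 annotation. The upstream *Bcl6* start had a match 118 bases before it, and the internal *Bcl6* start, which lies in no GENCODE exon either, had matches 168, 122 and 88 bases before it. A match is a description of the letters, and binding of a STAT or of BCL6 was not measured.

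Libraries held between 15746119 and 20523649 counts on genes. GF+MEV replicate 2 stood apart, with a chi-square per gene of 133 to 175 against the other GF+MEV livers, where all other pairs within a group gave 6.34 to 24.9, and with the lowest TMM factor, 0.8902. Its root mean square log2 difference from them (0.358 to 0.379) was near that of the other GF+MEV pairs (0.324 to 0.37). Among the 10 genes, results without this liver are given below for *Il6ra*, *Stat5a*, *Stat5b* and *Cish*. They are not given for *Socs2* and *Bcl6*, where this liver also lay outside the GF+PBS range. Below, expression is given as CPM, counts scaled to library size with the TMM factors of edgeR. Each of the 10 hepatocyte marker genes was measured, with a summed level of 105604 to 125079 CPM in GF+MEV and 105571 to 121099 CPM in GF+PBS livers, and 4 were called higher (*Tat*, *Hnf4a*, *Ass1* and *Cps1*). The 4 largest other marker lists had summed levels that overlapped between the groups: Kupffer cells (294 to 543 CPM in GF+MEV, 334 to 475 CPM in GF+PBS), endothelial cells (131 to 210.5 CPM, 162 to 218 CPM), stellate cells (188 to 271 CPM, 221 to 235 CPM) and cholangiocytes (44.6 to 96.3 CPM, 41.2 to 50.2 CPM). Within them, the cholangiocyte marker *Krt19* (log2 fold change 3.87, adjusted p = 0.000631) and the endothelial marker *Lyve1* (0.84, adjusted p = 0.0401) were called higher and the endothelial marker *Clec4g* (-0.48, adjusted p = 0.0214) lower. The 8 B cell markers summed to 13.2 to 22.4 CPM in GF+MEV and 24.0 to 29.4 CPM in GF+PBS, and 3 of them (*Cd79a*, *Cd79b* and *Ighd*) were called lower, of which *Cd79a* alone kept its call without each liver (*Cd79b* in 4 and *Ighd* in 1 of the 10 fits). Of 8 neutrophil markers only *Csf3r* was in the table, at 0.964 to 2.25 CPM in GF+MEV and 1.44 to 2.35 CPM in GF+PBS. The 9 T and NK cell markers were absent from the genes tested. The part of these other cells in the results below was not tested. Y-linked genes were measured in every liver, at a summed 107 to 137 CPM.

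Of the 10 genes, 1 rose in GF+MEV livers (*Il6ra*), 3 fell (*Socs3*, *Cish* and *Stat5a*) and 6 were not called by edgeR's quasi-likelihood test at a Benjamini-Hochberg adjusted p under 0.05. The called share was 40.0%, against 7.64% of all tested genes, of which 4.12% were higher and 3.52% lower. With 10 genes chosen by name these shares are a description. Of the 10, 6 had an unadjusted p under 0.05, and the share of all tested genes under that limit was not counted. The groups did not overlap for 3 of the 10 genes, 2 higher (*Il6ra* and *Stat3*) and 1 lower (*Socs3*), against 7.39% of all tested genes (3.94% higher and 3.45% lower). The median log2 fold change was 0.015 over the 10 genes and -0.0037 over all tested genes. Among all genes, 500 were higher and 428 lower, a split that was 428 higher and 612 lower with upper-quartile normalization and 332 higher and 691 lower with total counts alone.

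**Figure D1:**
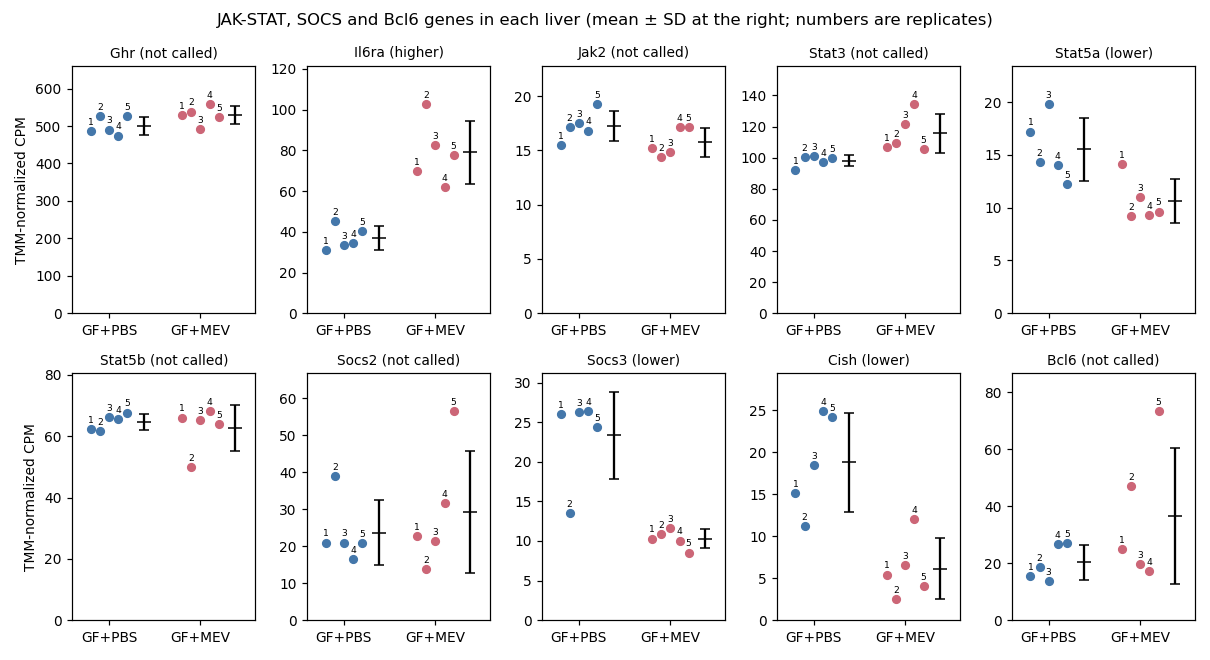
Expression of the 10 genes in CPM in each of the 5 GF+MEV and 5 GF+PBS livers, 1 panel per gene, with 1 point per liver and the group mean ± SD. *Il6ra*, *Stat3* and *Socs3* had no overlap between the groups, and *Socs2*, *Cish* and *Bcl6* spread widely among the GF+MEV livers.

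Of the receptor genes, *Il6ra* rose and *Ghr* was not called. *Ghr* (ENSMUSG00000055737, GRCm38 chr15:3317760-3583492, - strand) encodes the growth hormone receptor. Its expression was 528, 539, 492.7, 559 and 523 CPM in GF+MEV replicates 1 to 5 and 487, 527, 491, 475 and 526.2 CPM in GF+PBS replicates 1 to 5. The ranges overlapped, and the log2 fold change was 0.08 (SE 0.04, edgeR adjusted p = 0.480, exact two-sided permutation p = 0.0952). *Ghr* was also among the steadiest of the 10 genes between mice, with an SD on the log2 scale of 0.066 in GF+MEV and 0.069 in GF+PBS livers, against medians of 0.151 and 0.156 over all tested genes.

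*Il6ra* (ENSMUSG00000027947, GRCm38 chr3:89864059-89913196, - strand) encodes the ligand-binding chain of the interleukin 6 receptor. The GF+MEV livers had 69.8, 103, 82.7, 62.1 and 77.6 CPM and the GF+PBS livers 31.2, 45.3, 33.4, 34.5 and 40.4 CPM. The lowest GF+MEV value exceeded the highest GF+PBS value. The mean was 79.0 ± 15.4 CPM (SD, n = 5) against 36.9 ± 5.81 CPM (SD, n = 5), a 2.14-fold rise (log2 fold change 1.10, SE 0.16, edgeR adjusted p = 7.76e-05, exact two-sided permutation p = 0.00794, the smallest that 5 against 5 can give). Without GF+MEV replicate 2, the highest liver, the log2 fold change was 0.99. In whole liver, fewer cells of a type and less RNA per cell cannot be told apart, which holds for every change given here. An antisense gene, *Gm42809*, overlaps *Il6ra* exons over 242 bases and was absent from the genes tested.

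*Jak2* (ENSMUSG00000024789, GRCm38 chr19:29251828-29313080, + strand), the kinase that GHR holds, was measured at 15.2, 14.4, 14.8, 17.2 and 17.2 CPM in GF+MEV and 15.5, 17.1, 17.5, 16.8 and 19.3 CPM in GF+PBS livers. The groups overlapped, with a log2 fold change of -0.13 (SE 0.07, edgeR adjusted p = 0.403, exact two-sided permutation p = 0.111).

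The 3 STAT genes lie side by side on chromosome 11, and 1 of them, *Stat5a*, was called. *Stat3* (ENSMUSG00000004040, GRCm38 chr11:100885098-100939540, - strand), the effector of interleukin 6, had 107, 109, 122, 135 and 105 CPM in GF+MEV and 92.2, 100.4, 101, 97.1 and 99.7 CPM in GF+PBS livers. All 5 GF+MEV values lay above all 5 GF+PBS values (exact two-sided permutation p = 0.00794), but the difference was small, with a log2 fold change of 0.24 (SE 0.07), and missed the threshold over all genes (edgeR adjusted p = 0.0532). It passed with DESeq2 (adjusted p = 0.0208), with RLE normalization in edgeR (adjusted p = 0.0495) and without GF+MEV replicate 5 (adjusted p = 0.0407).

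*Stat5a* (ENSMUSG00000004043, GRCm38 chr11:100859351-100885169, + strand) encodes the less abundant of the STAT5 proteins in liver. Its values were 14.1, 9.25, 11.01, 9.26 and 9.64 CPM in GF+MEV and 17.2, 14.3, 19.8, 13.998 and 12.3 CPM in GF+PBS livers. GF+MEV replicate 1 lay inside the GF+PBS range and the other 4 below it. The mean fell from 15.5 ± 2.99 CPM (SD, n = 5) to 10.6 ± 2.05 CPM (SD, n = 5), a log2 fold change of -0.54 (SE 0.17, edgeR adjusted p = 0.0330, exact two-sided permutation p = 0.0238). This call was lost without GF+MEV replicate 2, 3, 4 or 5 (adjusted p = 0.0783, 0.0615, 0.0769 and 0.0768) and without GF+PBS replicate 1 or 3 (adjusted p = 0.0682 and 0.0865). The end of *Stat5a* overlaps that of *Stat3* by 72 bases on the other strand, and the library kit as named does not mark strand.

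*Stat5b* (ENSMUSG00000020919, GRCm38 chr11:100780731-100850724, - strand), the main STAT5 of hepatocytes, was measured at 66.1, 49.8, 65.4, 68.3 and 63.9 CPM in GF+MEV and 62.2, 61.8, 66.3, 65.7 and 67.7 CPM in GF+PBS livers. The groups overlapped, with a log2 fold change of -0.05 (SE 0.09, edgeR adjusted p = 0.80, exact two-sided permutation p = 0.770). The low value of GF+MEV replicate 2 set the sign, which was positive without it (log2 fold change 0.03). The *Stat5* pair are close copies: 10.8% of the 50-base stretches of the longest *Stat5a* transcript also occurred in *Stat5b*, and 11.8% the other way round. A read lying wholly within such shared sequence cannot be assigned to either gene, and how many reads did so was not examined.

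The feedback genes held the largest falls of the set. *Socs3* (ENSMUSG00000053113, GRCm38 chr11:117966079-117970047, - strand) encodes the inhibitor that binds gp130 and JAK kinases in interleukin 6 signalling. Its values were 10.3, 10.9, 11.7, 10.05 and 8.55 CPM in GF+MEV and 26.0, 13.6, 26.3, 26.4 and 24.4 CPM in GF+PBS livers. The groups did not overlap, although GF+PBS replicate 2 sat nearer to the GF+MEV livers than to the other GF+PBS livers. Mean expression was 10.3 ± 1.16 CPM (SD, n = 5) against 23.3 ± 5.53 CPM (SD, n = 5), 2.26-fold lower (log2 fold change -1.18, SE 0.20, edgeR adjusted p = 0.000275, exact two-sided permutation p = 0.00794). Without GF+PBS replicate 2 the log2 fold change was -1.32.

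*Cish* (ENSMUSG00000032578, GRCm38 chr9:107296026-107302784, + strand), a STAT5 target whose product binds cytokine receptors, fell most. The GF+MEV livers had 5.43, 2.48, 6.52, 12.01 and 4.05 CPM and the GF+PBS livers 15.2, 11.2, 18.4, 24.9 and 24.2 CPM. The groups overlapped only through GF+MEV replicate 4 and GF+PBS replicate 2. The mean was 6.10 ± 3.64 CPM (SD, n = 5) against 18.8 ± 5.86 CPM (SD, n = 5), 3.03-fold lower (log2 fold change -1.60, SE 0.43, edgeR adjusted p = 0.00554, exact two-sided permutation p = 0.0159). *Cish* also had the lowest count of the set, 36 in GF+MEV replicate 2, where counting error alone is 16.7%, and without this liver the log2 fold change was -1.41. *Gm17040* and *Gm17041*, on the other strand, overlap its exons over 261 and 479 bases and were absent from the genes tested.

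*Socs2* (ENSMUSG00000020027, GRCm38 chr10:95385362-95417180, - strand), the feedback gene most closely tied to growth hormone, gave no call. It had 22.8, 13.9, 21.4, 31.6 and 56.6 CPM in GF+MEV and 20.99, 38.9, 21.01, 16.4 and 20.9 CPM in GF+PBS livers. Each group held a single high liver, and the log2 fold change was 0.31 (SE 0.39, edgeR adjusted p = 0.630, exact two-sided permutation p = 0.635). Without GF+MEV replicate 5 it was -0.07. The pseudogenes *Gm9847* and *Gm8000* share 7.23% of the 50-base stretches of *Socs2*.

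*Bcl6* (ENSMUSG00000022508, GRCm38 chr16:23965052-23988852, - strand) was measured at 24.9, 47.1, 19.7, 17.3 and 73.4 CPM in GF+MEV and 15.5, 18.5, 13.7, 26.7 and 26.9 CPM in GF+PBS livers. Replicates 2 and 5 of GF+MEV lay above all GF+PBS livers and the other 3 within their range. The mean was 36.5 ± 23.7 CPM (SD, n = 5) against 20.3 ± 6.21 CPM (SD, n = 5), with a log2 fold change of 0.84 (SE 0.44) that was not called (edgeR adjusted p = 0.175, exact two-sided permutation p = 0.190). Within GF+MEV the highest liver was 4.23 times the lowest, against 1.96 times within GF+PBS, and without GF+MEV replicate 5 the log2 fold change was 0.42.

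**Figure D2:**
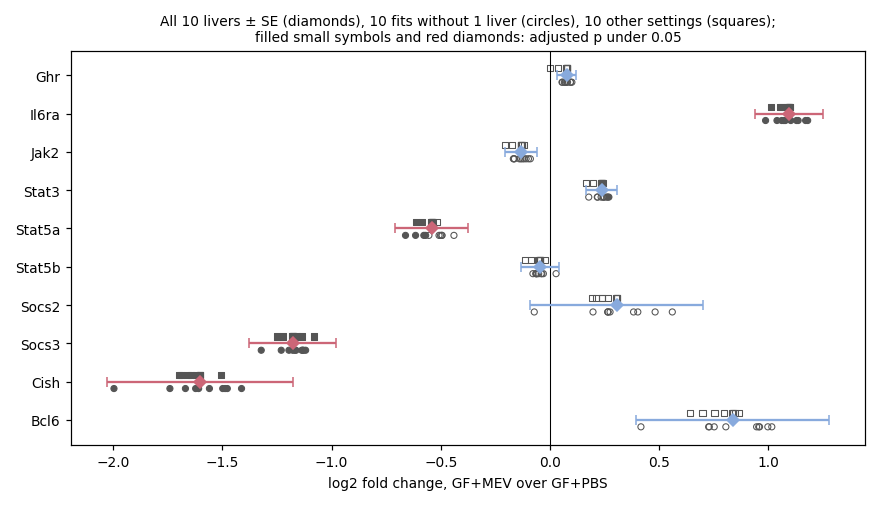
Log2 fold change of GF+MEV over GF+PBS for the 10 genes, with diamonds and SE bars for the fit of all 10 livers, circles for the fits that leave out 1 liver each and squares for other tests and scalings. *Il6ra*, *Socs3*, *Cish* and *Stat5a* kept their direction throughout, and *Socs2*, *Stat5b* and *Ghr* crossed 0.

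The spread between mice varied widely among the 10 genes. In GF+MEV livers the SD of log2 CPM was 0.751 for *Socs2*, 0.822 for *Cish* and 0.882 for *Bcl6*, higher than in 99.3%, 99.5% and 99.6% of all tested genes. In GF+PBS livers the same SD was 0.463, 0.479 and 0.443, higher than in 95.5%, 96.0% and 94.7% of genes. *Socs3* varied little among GF+MEV livers (SD 0.166, 55.5% of genes lower) and more among GF+PBS livers (SD 0.414, 93.3%). *Jak2*, *Stat3* and *Stat5b* stayed between 0.053 and 0.183 in both groups. No test of these spreads was made.

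Levels of different genes can be compared only per length, here as mean CPM per kilobase of merged exons. In GF+PBS livers *Ghr* came first at 55.4 CPM per kb, followed by *Stat5b* (11.7), *Stat3* (10.3) and *Socs3* (8.07), and the ranges of the first 3 did not overlap that of the next gene. Below them, each gene overlapped its neighbour: *Il6ra* (4.28 CPM per kb), *Jak2* (3.43), *Bcl6* (3.03), *Cish* (2.93), *Socs2* (2.48) and *Stat5a* (2.18). In GF+MEV livers the order was *Ghr* (58.4 CPM per kb), *Stat3* (12.1), *Stat5b* (11.3), *Il6ra* (9.14), *Bcl6* (5.45), *Socs3* (3.56), *Jak2* (3.13), *Socs2* (3.07), *Stat5a* (1.49) and *Cish* (0.950), and *Ghr* alone stood clear of its neighbour. The order depends on the length used: per kb of the longest transcript, *Stat3* (16.2) lay above *Stat5b* (12.4) and *Stat5a* (3.92) above *Jak2* (3.43) in GF+PBS livers, and *Ghr* was at 120.0. Of the summed *Stat5a* and *Stat5b* level per kb, *Stat5a* made up 11.7 ± 1.82% (SD, n = 5) in GF+MEV and 15.7 ± 2.63% (SD, n = 5) in GF+PBS livers, or 18.3 ± 2.63% and 23.9 ± 3.63% with the longest transcripts.

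**Figure D3:**
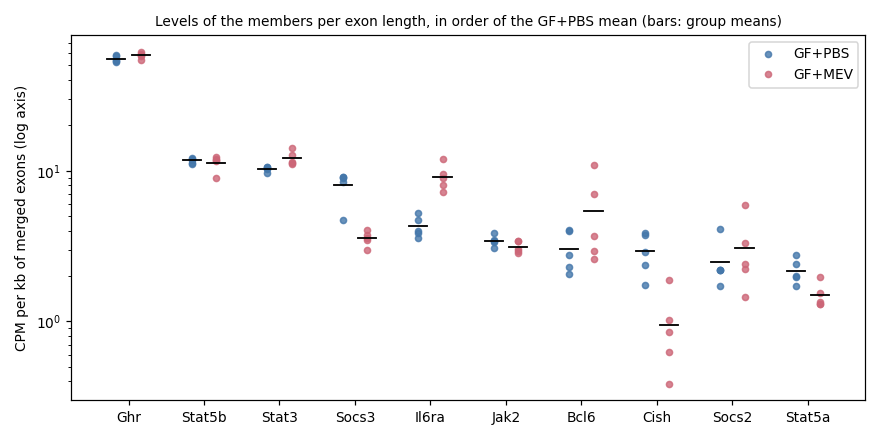
Level of the 10 genes in CPM per kb of merged exons on a log axis, by group. Points are the 5 livers of each group and bars are the group means. *Ghr* lay far above the other genes in both groups, and *Socs3* and *Cish* moved down the order in GF+MEV livers while *Il6ra* moved up.

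The rest of the pathway's machinery gave no call in the main edgeR fit (TMM scaling, group alone, all livers). Lists of 20 other cytokine receptors, 7 other JAK and STAT genes and 26 other feedback regulators, phosphatases and corepressors were written for comparison, of which 48 of 53 genes were tested. In the main edgeR fit 0 of the 48 were called and 9 had an unadjusted p under 0.05, a share not counted over all genes. DESeq2 called 2 (*Ptpn2* and *Bcor*) and limma-voom 0. The median log2 fold change was -0.058, -0.024 and 0.056 in the 3 lists. The smallest adjusted p belonged to *Ptpn2*, a phosphatase that acts on JAK and STAT proteins (log2 fold change 0.37, adjusted p = 0.0584). The interleukin 10 receptor gene *Il10ra* (log2 fold change -0.45, adjusted p = 0.0802) and the phosphatase gene *Ptpn6* (log2 fold change -0.21, adjusted p = 0.0811) had no overlap between the groups. Other edgeR settings did give calls. *Ptpn6* was lower with upper-quartile and total-count scaling, *Ptpn2* higher without GF+PBS replicate 5 and *Bcor* lower without GF+MEV replicate 5. A replicate block gave 1 lower call among the other JAK and STAT genes.

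For other kinases and STAT genes, log2 fold changes were 0.09 for *Jak1*, 0.02 for *Jak3*, -0.07 for *Tyk2*, -0.19 for *Stat2* and 0.04 for *Stat6*, with adjusted p from 0.276 to 0.943. The other *Socs* genes had log2 fold changes of -0.05 for *Socs4*, -0.19 for *Socs5*, 0.14 for *Socs6* and 0.18 for *Socs7*, with adjusted p from 0.350 to 0.864. *Socs1* and *Stat4* were absent from the genes tested.

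Growth hormone targets were counted next. Of 9 tested genes that growth hormone induces in liver, 2 rose, and *Cish* was the 1 that fell, with a median log2 fold change of 0.305. *Igf1*, the main hormone made by the liver in response to growth hormone, was 431 ± 29.5 CPM (SD, n = 5) in GF+MEV against 347 ± 43.0 CPM (SD, n = 5) with PBS (log2 fold change 0.31, SE 0.09, adjusted p = 0.0285). This call was lost without GF+MEV replicate 1 or 5, without GF+PBS replicate 3, 4 or 5, and with upper-quartile or total-count scaling. *Trib1*, a pseudokinase gene, rose from 48.1 ± 8.13 CPM to 69.4 ± 10.9 CPM (± SD of 5 livers, log2 fold change 0.53, adjusted p = 0.0165). *Igfals*, which encodes the subunit that keeps IGF1 in the circulation, had a log2 fold change of -0.16 (adjusted p = 0.407), and *Igfbp3* had 0.19 (adjusted p = 0.535).

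In mouse liver the pulsed growth hormone of males and the steadier hormone of females set many sex-biased genes, partly through STAT5B and BCL6. Of 25 tested male-biased genes, 5 rose and 1 fell, with a median log2 fold change of 0.394 and 20 positive values. The count of higher genes rested on single livers, at 3 without GF+MEV replicate 2 or 4 or GF+PBS replicate 4 and 8 without GF+MEV replicate 5 or GF+PBS replicate 1. *Ugt2b38*, a glucuronosyltransferase gene, rose from 3.60 ± 1.14 CPM to 12.9 ± 5.95 CPM (± SD of 5 livers, log2 fold change 1.84, adjusted p = 0.00144). *Mup20*, which encodes the urinary protein darcin, rose from 1307 ± 240.0 CPM to 2345 ± 469 CPM (± SD of 5 livers, log2 fold change 0.84, adjusted p = 0.00197). The groups did not overlap for either gene. *Cyp4a12b* (log2 fold change 0.66, adjusted p = 0.00620), *Mup21* (0.53, adjusted p = 0.0211) and *C6* (0.77, adjusted p = 0.0268), the last named outside the rule after its value was seen, also rose. *Cyp2u1* fell (log2 fold change -0.75, adjusted p = 0.00999), and *Bcl6*, itself male-biased, is among the genes not called.

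Of 21 tested female-biased genes, 6 fell and 15 were not called, with a median log2 fold change of -0.178. *Cyp2b9*, a cytochrome P450 gene, was 3.07 ± 3.82 CPM (SD, n = 5) in GF+MEV against 24.0 ± 10.1 CPM (SD, n = 5) in livers of GF+PBS mice (log2 fold change -3.01, adjusted p = 0.00370). The steroid hydroxylase gene *Cyp2a4* (log2 fold change -2.24, adjusted p = 0.00821), *Cyp2a5* (-0.63, adjusted p = 0.00315) and *Cyp2a22* (-1.15, adjusted p = 0.0134) fell with it. *Abcd2* (-0.73, adjusted p = 0.0372) and *Cd36* (-0.40, adjusted p = 0.0275), named outside the rule after their values were seen, also fell. Of the 10 fits that leave out a liver, *Abcd2* kept its call in 3 and *Cd36* in 5. The *Mup*, *Cyp2a*, *Cyp2b*, *Cyp4a12* and *Ugt2b* genes have near-identical copies between which reads can be lost or split, so their values are less certain than those of single-copy genes. *Mup21* lost its call without GF+MEV replicate 1, 2 or 4 or GF+PBS replicate 4, and *C6* without GF+MEV replicate 2 or 4 or GF+PBS replicate 4 or 5.

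Genes induced by interleukin 6 and STAT3 moved both ways. Of 29 tested genes of this acute-phase list, 5 rose, 4 fell and 20 were not called, with a median log2 fold change of 0.11 and 22 positive values. The list includes 3 of the 10 genes, *Il6ra*, *Socs3* and *Stat3*. Genes not called, named outside the rule, included *Saa1* (log2 fold change 0.28), *Saa2* (-0.27), *Saa4* (0.35), *Lrg1* (0.41), *Crp* (0.04) and *C3* (0.06). The higher genes numbered 8 without GF+MEV replicate 5 and 8 with DESeq2. *Cebpd*, a transcription factor gene of the acute-phase response, rose from 5.53 ± 1.27 CPM to 25.0 ± 3.12 CPM (± SD of 5 livers, log2 fold change 2.17, adjusted p = 1.77e-07). The secreted acute-phase genes *Serpina3n* (log2 fold change 0.45, adjusted p = 0.000471), *Hp* (0.31, adjusted p = 0.0115) and *Lbp* (0.28, adjusted p = 0.0452), the last named outside the rule after its value was seen, rose, as did *Il6ra* itself. *Socs3* fell together with *Pim1*, a kinase gene (log2 fold change -0.59, adjusted p = 0.000604), *Bcl3*, a regulator of NF-κB (-0.60, adjusted p = 0.00537), and *Hamp*, which encodes the iron hormone hepcidin (-0.44, adjusted p = 0.0365). *Hamp* stayed called in only 2 of the 10 fits that leave out a liver, those without GF+MEV replicate 4 or GF+PBS replicate 5, and *Lbp* in only 2, those without GF+MEV replicate 2 or 5. *Lbp* was not called with upper-quartile or total-count scaling either.

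A list of genes that interferons induce was counted. Of its 24 tested genes, 6 fell and 18 were not called, with a median log2 fold change of -0.413 and 1 positive value. *Irf1*, a transcription factor gene of the interferon response, was 16.2 ± 0.869 CPM (SD, n = 5) in GF+MEV against 37.3 ± 3.09 CPM (SD, n = 5) in livers of GF+PBS mice (log2 fold change -1.21, adjusted p = 9.28e-08). The chemokine gene *Cxcl10* (log2 fold change -1.36, adjusted p = 0.00735) and the GTPase genes *Gbp6* (-0.96, adjusted p = 0.00597) and *Igtp* (-0.97, adjusted p = 0.0316) fell too. *Gbp6* and *Igtp* share exon sequence on the same strand with *Gm43302* and *Irgm2*. Without any one of GF+MEV replicates 1, 3 and 5 or GF+PBS replicates 2, 4 and 5, *Igtp* lost its call and the list had 3 lower genes in place of 6. Summed B cell markers were lower in the same livers (above), and their part was not tested.

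Genes that BCL6 is known to repress, mostly in lymphocytes, were also counted. Of 16 tested, 2 rose and 4 fell, with a median log2 fold change of -0.138. *Cdkn1a*, which encodes the cell cycle inhibitor p21, rose from 1.36 ± 0.805 CPM to 7.13 ± 1.47 CPM (± SD of 5 livers, log2 fold change 2.39, adjusted p = 0.000124), and *Bcl2l1*, a survival gene, rose less (log2 fold change 0.37, adjusted p = 0.0138). *Id2*, an inhibitor of helix-loop-helix factors, was 46.7 ± 10.4 CPM (SD, n = 5) in GF+MEV against 121 ± 11.9 CPM (SD, n = 5) in livers of GF+PBS mice (log2 fold change -1.37, adjusted p = 1.09e-05). *Myc* (log2 fold change -1.50, adjusted p = 0.0414), *Cish* and *Cxcl10* were the others that fell. *Myc* lost its call without GF+MEV replicate 1, 2, 3 or 5, without GF+PBS replicate 4 or 5, and with limma-voom.

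**Figure D4:**
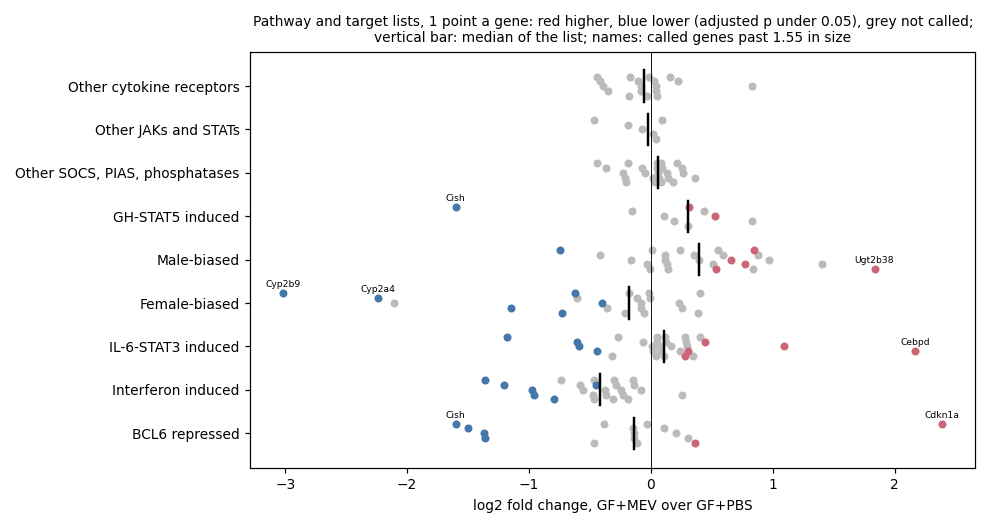
Log2 fold change of GF+MEV over GF+PBS for each tested gene of the 9 lists, 1 point per gene, red where called higher, blue where called lower and grey where not called, with a vertical bar at the median of each list. The 3 lists of pathway machinery hold grey points alone, the male-biased list lies mostly to the right (median 0.394) and the interferon list mostly to the left (median -0.413).

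Likeness over the 10 livers was measured as the root mean square difference of log2 CPM profiles, each centred on its own mean, among 11833 genes whose mean reached 1 CPM. Nearest to *Il6ra* were *Blm* (0.088), *Cep85l* (0.137) and *Pfkfb2* (0.149). Nearest to *Stat5a* were *Clec4g* (0.135), the endothelial marker above, *Nme6* (0.151) and *Pard6b* (0.161). *Socs3* had no neighbour as close, with *AC166575.1* (0.228), *A330040F15Rik* (0.258) and *Bbc3* (0.266), nor had *Cish*, with *Hhex* (0.325), *Gbp11* (0.382) and *Id2* (0.521). The profiles include the difference between the groups, so the direction these genes share with the gene they resemble was set by the measure.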

How the data were processed

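Liver RNA of 5 GF+MEV and 5 GF+PBS mice was sequenced, 1 library per mouse, with groups and replicate numbers taken from the sample labels. The authors converted reads with bcl2fastq 2.17, aligned them to GRCm38 with STAR 2.7.3a and counted them per gene with HTSeq. The version of HTSeq, its strand setting and its annotation are not given in the sources used here. Genes under 20 counts across samples were removed, and the authors deposited the raw counts under Ensembl identifiers. The table's 5 columns that match no described sample were not used. Symbols, positions and lengths came from GENCODE M21, in which 5 identifiers had no symbol.

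Counts were compared with edgeR 4.0.16 in R 4.3.3 (TMM, quasi-likelihood fit on group alone, Benjamini-Hochberg over all 12147 genes with at least 20 counts over the 10 livers, threshold 0.05). SE was computed on log2 CPM (prior count 2). Single values were also compared by exact two-sided permutation over 252 labelings, with a smallest p of 0.00794. Alternatives were DESeq2 1.42.0, limma-voom (limma 3.58.1), other scalings and filters, a replicate block, each liver left out and GF+PBS livers summed. On simulated data with 200 genes changed 2-fold up or down among 12147, edgeR recovered 182 with 11 false calls. It made 0 calls where none was changed, and smaller changes were not simulated.

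The members and lists were chosen with earlier results of these data known. Besides the 10 genes, the text names other JAK and STAT genes, the other *Socs* genes, *Igf1*, *Igfals* and *Igfbp3*, up to 4 called genes per list and direction with a mean of at least 1 CPM, by adjusted p, and the 3 genes most like each called gene. A gene that this rule also named is not reported here. Nothing but the labels says that the 5 livers of a group are independent, and all 20 pairs within groups differed by more than counting error (chi-square per gene of at least 6.34). GF+PBS replicates 1 and 3, and 4 and 5, were the most alike, so these pairs were also summed. Depth limits precision through counting error, and members held 36 to 10206 counts per liver.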

Additional observations from a re-analysis of the deposited data

Results flagged for a closer look

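In 4 of 38 groups of 5 livers tested for a value far from the rest (gap to the nearest liver over 0.71 of the whole range), the limit was passed, where chance gives about 1.9. *Stat5b* was 49.8 CPM in GF+MEV replicate 2 and 63.9 to 68.3 CPM in the other GF+MEV livers. In GF+PBS replicate 2, *Socs2* was high at 38.9 CPM, against 16.4 to 21.01 CPM in the remaining livers given PBS. In the same liver *Socs3* was low at 13.6 CPM, against 24.4 to 26.4 CPM elsewhere in GF+PBS. Kupffer cell markers summed to 543 CPM in GF+MEV replicate 4, above the other GF+MEV livers.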

How the results depend on the processing

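*Il6ra*, *Socs3* and *Cish* kept their direction and their call under all 20 alternatives, and *Stat5a* kept its direction. *Stat3* (log2 fold change 0.24) was called with DESeq2 and with RLE normalization, which raised the genes of the set called higher to 2 in each, and the cause was not tested. With total counts alone, *Ghr* was at -0.0002, and 332 genes were higher and 691 lower over all genes. Summing GF+PBS replicates 1 and 3, and 4 and 5, left fewer samples, with *Stat5a* at -0.52 (adjusted p = 0.0811) and 209 genes lower over all genes. Leaving out 1 liver at a time moved log2 fold changes between -0.66 and -0.44 for *Stat5a*, 0.18 and 0.27 for *Stat3*, -0.078 and 0.028 for *Stat5b* (positive without GF+MEV replicate 2) and -0.072 and 0.56 for *Socs2* (negative without GF+MEV replicate 5). In these fits the genes of the set called higher ranged from 1 to 2 and list genes called lower from 13 to 23. With other settings, list genes called lower reached 24 (upper-quartile normalization), 26 (total counts alone) and 25 (replicate block). Per kb of the longest transcript, GF+PBS levels were 120.0 for *Ghr*, 16.2 for *Stat3*, 3.92 for *Stat5a*, 12.4 for *Stat5b*, 5.58 for *Socs2*, 3.999 for *Cish* and 5.15 CPM per kb for *Bcl6*. Same-numbered livers of the 2 groups did not deviate together (r from -0.188 to 0.166, and 2 of 5 GF+MEV livers correlated best with their own number). The interferon list had 10 lower genes with total counts alone and 11 with a replicate block. The block gave 792 calls in place of 928 and changed no call among the 10 genes. Of 27 called list genes named outside the set, not counting *Abcd2* and *Cd36*, 20 kept their call under every alternative. A change as small as that of *Stat3* was called or not depending on the test, with 5 livers per group from a single experiment.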
